A study of Homo sapiens with 12 samples.

Results

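The genes described here build and drive mitosis, the division of a cell's copied chromosomes. They are a list of 55 genes named for their roles: transcription factors of the mitotic programme, the kinase CDK1 with its cyclins and phosphatases, other mitotic kinases, the chromosomal passenger complex, the spindle checkpoint, centromere and kinetochore, kinesins, spindle microtubule proteins, anaphase, cytokinesis, and condensin with chromosome structure. A gene entered the tests where its mean over the 12 libraries reached 10 normalized counts (reads per gene after the authors' scaling of each library), and 53 of the 55 did, among 11242 of 16383 listed genes. The other 2 had few counts. SPC25, a subunit of the NDC80 kinetochore complex, had 18.7, 15.5 and 15.2 normalized counts in the proliferating libraries and 0 to 2.71 in the irradiated ones. Its complex partners NDC80 and NUF2 had proliferating means of 1369 and 1237. KIFC1, a minus-end kinesin, had 8.3, 3.33 and 2.86 in the proliferating libraries and 0 to 0.888 in the others. Whether these 2 genes had little RNA or lost reads in counting was not tested. Of the 53, 50 had a mean of at least 10 in each group, and CDC25C, NEK2 and CENPA passed without reaching it under palbociclib.

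All libraries were poly(A) RNA of IMR90, an established line of wild-type human lung fibroblasts. Proliferating cells were untreated. The other 3 groups had received 20 Gy of ionizing radiation within 10 min, which left them senescent by the labels, and then DMSO, 2 µM palbociclib, an inhibitor of CDK4 and CDK6, or 2 µM ruxolitinib, an inhibitor of the Janus kinases. Doses followed on days 4, 6, 8 and 10 after irradiation, with harvest on day 11. Each group held 3 libraries. The labels do not say that these came from separate cultures, so p-values measure only the spread between these samples.

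Mitotic genes are switched on late in the cell cycle. In resting cells the DREAM complex, pocket proteins of the RB family joined to the MuvB core, keeps many of them off, and in cycling cells MuvB works with MYBL2 and then FOXM1 to turn them on. CDK1 with cyclin B starts mitosis, PLK1 and the Aurora kinases shape the spindle, the checkpoint holds anaphase back until kinetochores are attached, and the anaphase-promoting complex with CDC20 then releases the chromatids. Because most cells that hold these transcripts are on their way to division, their summed level is widely read as a sign of cycling cells. In bulk RNA, fewer such cells and less RNA per cell cannot be told apart.

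Over the listed genes the libraries held 14106799 to 21762412 recovered reads. All 8 fibroblast markers were expressed. Their sum, mostly from COL1A1, COL1A2 and VIM, moved with the groups. It was 813770 to 847555 normalized counts in proliferating cells, 403689 to 414316 with DMSO, 646634 to 679817 with palbociclib and 510843 to 514800 with ruxolitinib. THY1 and DCN had higher means with DMSO (9900 and 13247) than in proliferating cells (8752 and 11887), and the rest had lower means. Marker lists of other cell types moved too. The 5 endothelial markers summed to 1681 to 1949, 2389 to 2554, 3501 to 4380.1 and 2247 to 2254 in the same order of groups, nearly all from TEK (group means of 1832 to 3957), while CDH5 stayed at or under 2.71. The 4 smooth muscle markers summed to 8499.7 to 8827, 5732 to 5991, 7468 to 8250.5 and 5369 to 5487, mostly from SMTN and CNN1, while MYH11 stayed at or under 2.19. The 6 epithelial markers summed to 99.99 to 145.3, 267 to 311, 377 to 504 and 297 to 349, mostly from KRT19, with KRT5 and SFTPC at or under 0.888. The 5 leukocyte markers summed to 2.22 to 7.26, 30.1 to 40.6, 14.2 to 25.2 and 17.1 to 26.2, mostly from CD14. Their part in the results was not tested. If all libraries were given an equal total, the median gene's log2 change would move by 0.23 for DMSO against proliferating cells, by -0.23 for palbociclib against DMSO and by -0.20 for palbociclib against ruxolitinib. Over all genes this moves the share of higher calls from 45.7% to 64.0%, from 53.9% to 15.4% and from 56.4% to 15.7%. Under it 53, 53 and 52 mitosis genes were called lower in these comparisons. With an equal upper quartile of counts in place of an equal total, the moves were 0.16, -0.03 and -0.05 in the same order. The share of higher calls was then 58.5%, 48.0% and 45.8%. The proliferating libraries differed from one another on the mitosis genes, with A126 lowest for most of them, and are described last. Without A126, as without any other single library, all 53 genes were still called lower after irradiation.

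Summed over the listed genes, mitotic transcripts made up 0.906% to 0.992% of all normalized counts in the 3 proliferating libraries, 0.153% to 0.155% with DMSO, 0.120% to 0.121% with ruxolitinib and 0.0552% to 0.0583% with palbociclib. No group overlapped another. The order of the means, proliferating over DMSO over ruxolitinib over palbociclib, held for 50 of the 53 genes. In CDC25C and INCENP the ruxolitinib mean lay above the DMSO mean, within the spread, and BUB3 had the order proliferating, palbociclib, DMSO, ruxolitinib.

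**Figure D1:**
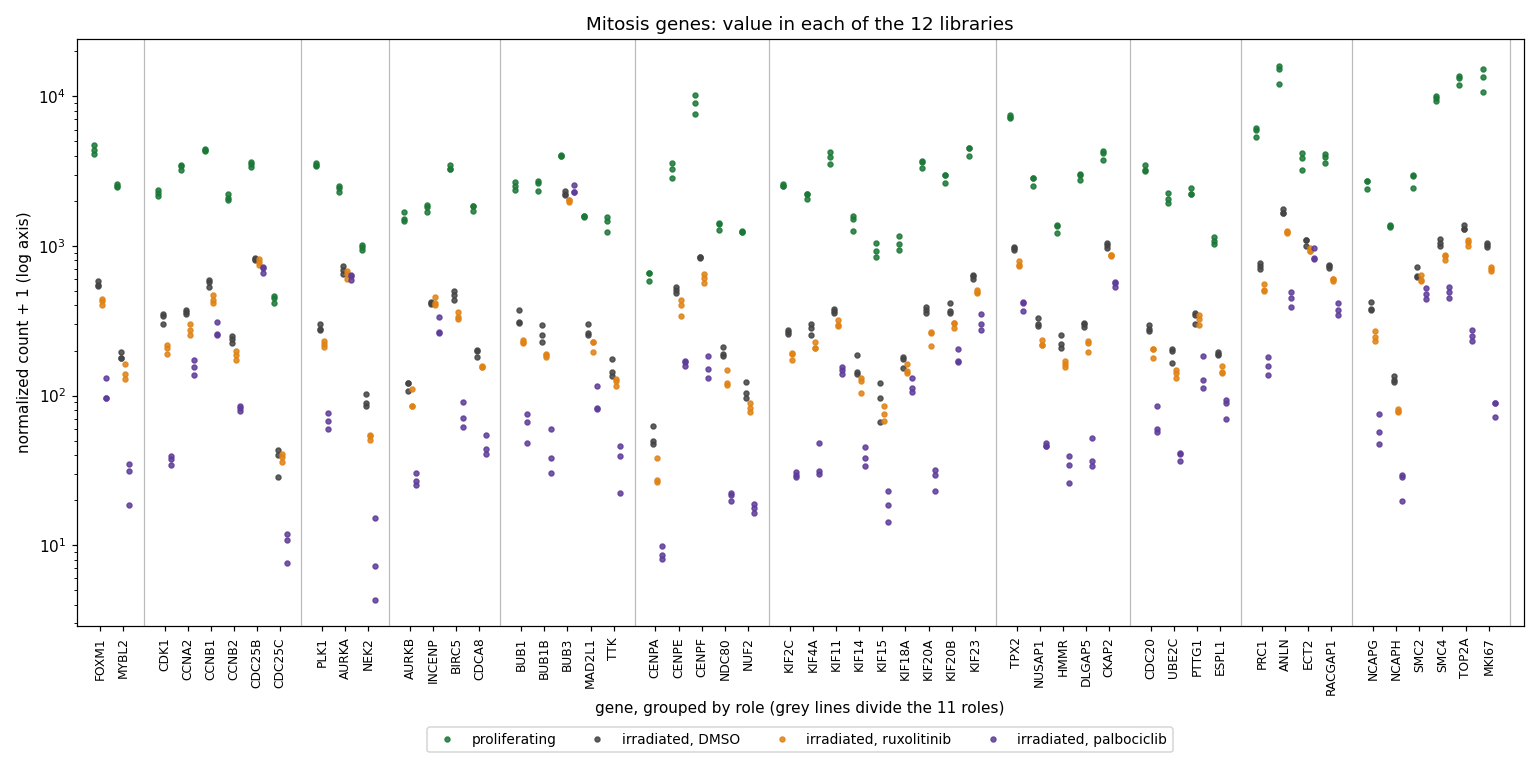
Normalized count plus 1, on a log axis, of the 53 tested mitosis genes in each of the 12 libraries; 1 point is 1 library, colours are the 4 groups, and grey lines divide the 11 roles. In all 53 genes the proliferating libraries lie above every DMSO library, and in most the palbociclib libraries lie lowest, while BUB3, AURKA, CDC25B and ECT2 show little distance between the irradiated groups.

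After irradiation all 53 genes were lower with DMSO than in proliferating cells by limma at an adjusted p under 0.05, where 39.3% of all tested genes were called lower, and 52 of the 53 fell at least 2-fold, where 8.98% of all genes did. The median log2 change was -3.08, beside -0.05 over all tested genes, and ran from -3.78 in MYBL2 to -0.83 in BUB3. All 53 had groups that did not overlap, as had 75.1% of all genes in either direction. The DMSO mean was 11.7% of the proliferating mean for the median gene, from 7.25% in MYBL2 to 56.1% in BUB3. Among the 100 largest falls of all genes, 39 were mitosis genes (73.6% of the 53).

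Palbociclib lowered 51 of the 53 further than DMSO, against 22.3% of all genes called lower, and 44 fell at least 2-fold, against 5.39%. The median log2 change was -2.08, beside 0.02 over all genes, so that the median gene kept 23.3% of its DMSO level and 2.47% of its proliferating level. Here the genes spread more widely than after irradiation: the SD of the log2 change over the 53 was 0.96, beside 0.58 for DMSO against proliferating cells. KIF20A had the lowest value (-3.74) and BUB3 the highest (0.08). AURKA and BUB3 were not called.

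With ruxolitinib 29 of the 53 fell relative to DMSO, against 3.42% of all genes called lower, and none rose, against 1.10% called higher. No fall reached 2-fold, where 0.649% of all genes did. The median log2 change was -0.37, beside -0.0028 over all genes, and values ran from -0.81 in CENPA to 0.06 in CDC25C. The groups did not overlap for 44 of the 53, against 31.9% of all tested genes in either direction and 17.0% with the ruxolitinib libraries below. Where single genes are said below to have ruxolitinib libraries under the DMSO libraries without a call, this 17.0% applies. The count of 29 moved with the libraries. On leaving out each library in turn it ran from 11 without A122, a ruxolitinib library, to 37 without A119. A119 is a palbociclib library, which enters this comparison only through the spread that the fit shares over all groups. The count was 35 with edgeR and 37 with DESeq2 on recovered reads.

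Set against ruxolitinib directly, palbociclib gave lower values for 50 of the 53 (17.6% of all genes were called lower) and a higher value for BUB3 (22.8% were called higher), while AURKA and ECT2 were not called. At least 2-fold falls numbered 37, against 3.99% of all genes. The median log2 difference was -1.73, beside 0.02. The comparisons of the 2 inhibitors with DMSO share the DMSO libraries, so their values are given side by side.

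**Figure D2:**
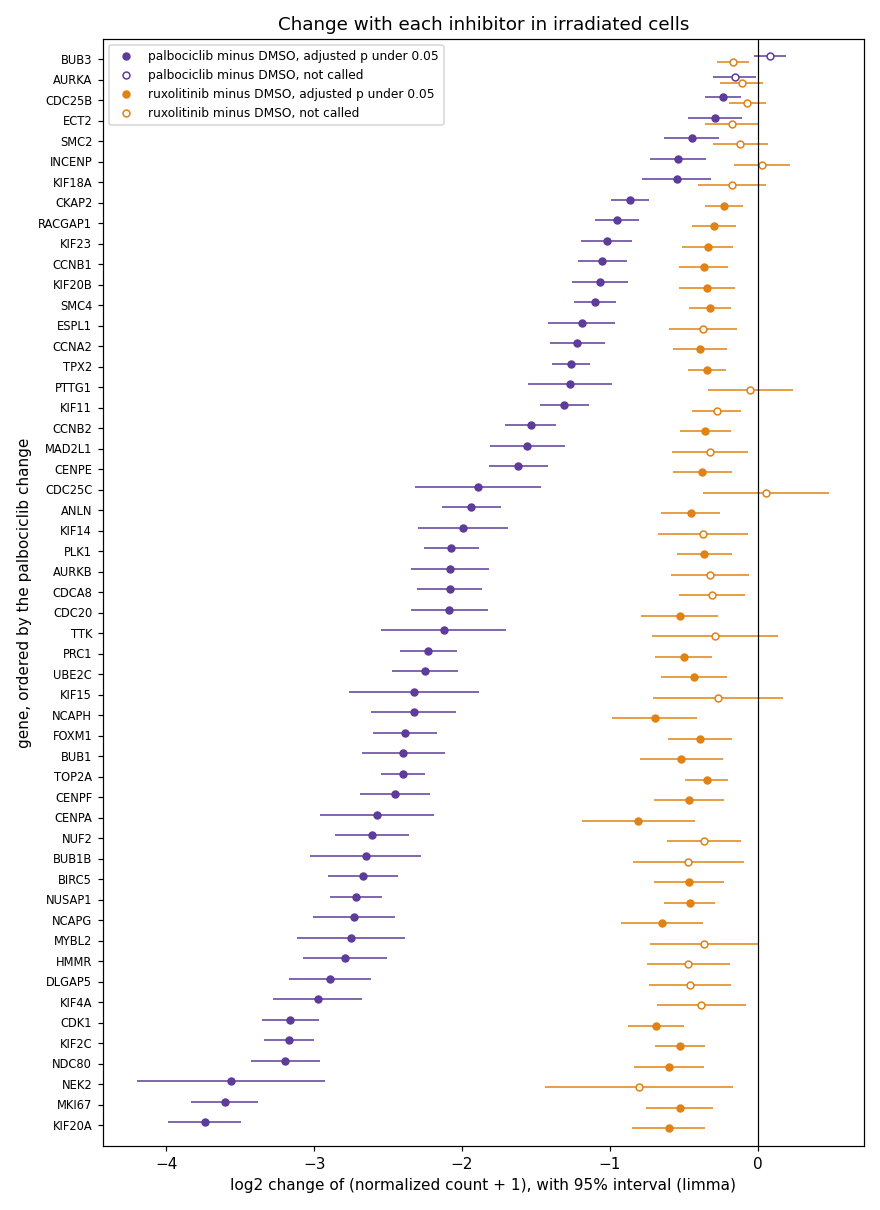
Log2 change of (normalized count + 1) relative to the DMSO group for palbociclib (purple) and ruxolitinib (orange), 1 row per gene ordered by the palbociclib change; points are limma estimates from 3 libraries per group, bars 95% intervals, and open points were not called at an adjusted p under 0.05. Palbociclib changes run from -3.74 in KIF20A to 0.08 in BUB3, while every ruxolitinib change lies between -0.81 and 0.06.

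**Figure D3:**
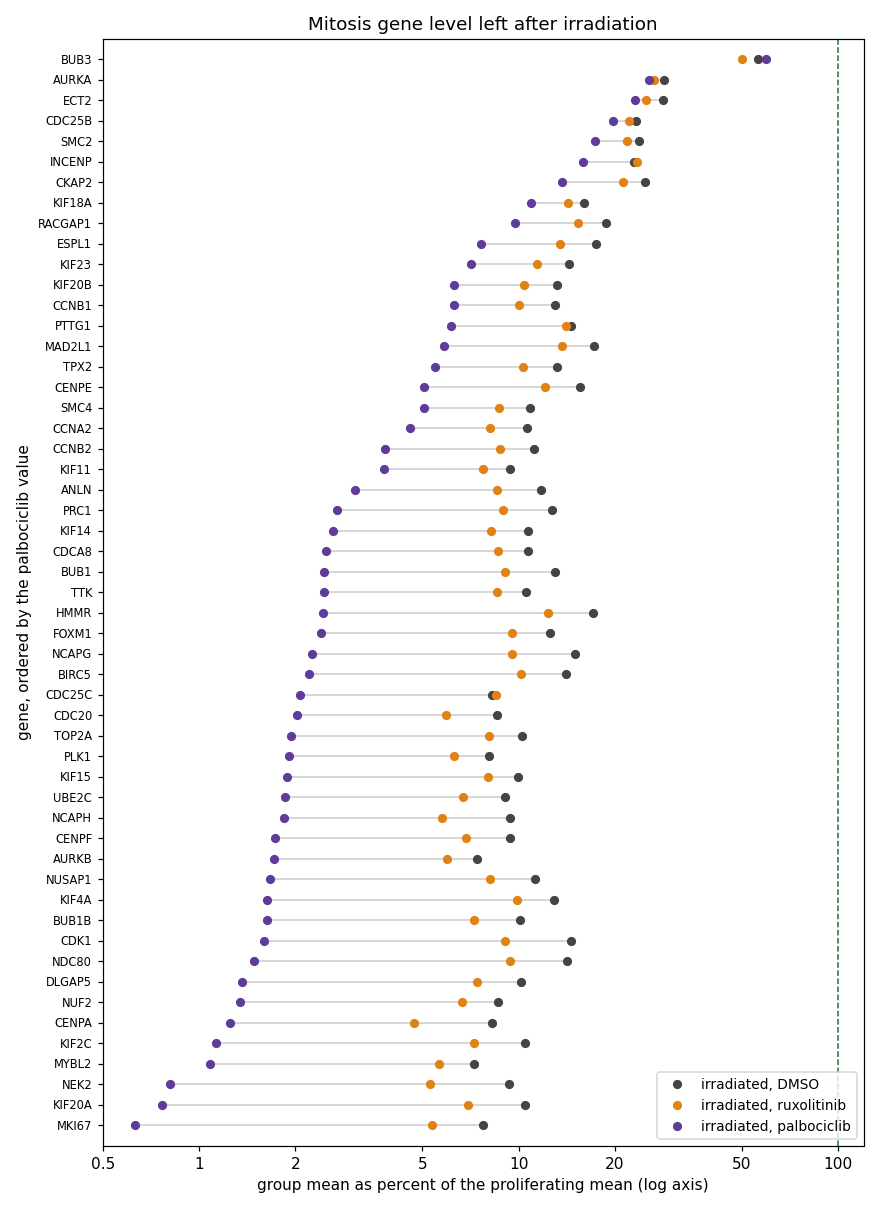
Mean of each irradiated group as percent of the proliferating mean, on a log axis, for the 53 genes ordered by the palbociclib value; the dashed line marks the proliferating level. Palbociclib values run from 0.632% in MKI67 to 59.5% in BUB3, and the grey lines join the palbociclib and DMSO values of a gene.

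Counts of genes called in each role below are read against the shares of all tested genes. Of these, 39.3% were called lower after irradiation, 22.3% with palbociclib and 3.42% with ruxolitinib. At least 2-fold lower were 8.98% after irradiation and 5.39% with palbociclib. The transcription factors come first. FOXM1 (Entrez gene 2305), the forkhead factor of late cell cycle genes, stood at 4406, 4142 and 4742 normalized counts in the proliferating libraries, 540.5, 581 and 547 with DMSO, 95.2, 95.2 and 129.7 with palbociclib and 427, 399.8 and 444 with ruxolitinib, in the order of library numbers within each group that is used throughout. It fell after irradiation (log2 change -2.99, SE 0.10, adjusted p 6.83e-13), again with palbociclib (-2.39, SE 0.10, adjusted p 8.72e-11) and less with ruxolitinib (-0.39, SE 0.10, adjusted p 0.0378). MYBL2 (4605), its partner earlier in the cycle, stood at 2489, 2523 and 2574 normalized counts in the proliferating libraries, 177, 178 and 195 with DMSO, 17.7, 33.9 and 30.2 with palbociclib and 137, 129 and 162 with ruxolitinib. Its DMSO level was 7.25% of the proliferating level, the lowest share among the 53 genes, and with palbociclib 1.08% was left. The ruxolitinib libraries of MYBL2 all lay below the DMSO libraries, but the change was not called (adjusted p 0.32).

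MYBL2 and FOXM1 reach their targets through MuvB, which binds a short element near the start of transcription, the cell cycle genes homology region (CHR), often with a CCAAT box that binds NF-Y upstream of it. RefSeq promoter windows of GRCh38.p14, 250 bases before to 50 after the start and the first listed for each gene, were matched for 47 of the 55 genes. The letters TTTGAA or TTCGAA, searched on both strands, occurred in 34 of these 47 windows (72.3%), in 16.6% of the windows of all 27305 genes and in 11.3% of 9111 tested genes. In 29 of the 47 they began within 50 bases of the start. The letters CCAAT, on either strand, occurred in 33 of 47 (70.2%), beside 35.7% of all windows, and 26 held both. A match of letters is a description of the window, not a binding site.

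The following are the 100 bases before the RefSeq start, for some of the 17 genes with no annotated exon in these 100 bases. All of the 17 with CHR letters there are shown, but few of those without. Not shown are CDK1, CDC25C, BUB1, KIF14, KIF20B, KIFC1, PTTG1, NCAPH and TOP2A, which hold no CHR letters in these 100 bases. The sequences place the CHR letters beside the size of the palbociclib change. Capitals mark the CHR letters (TTTGAA, or TTCAAA where they lie on the other strand) and the CCAAT letters (CCAAT, or ATTGG on the other strand). In MKI67 the second CHR match and a CCAAT match share bases.
MKI67, chr10:128126424-128126523, minus strand: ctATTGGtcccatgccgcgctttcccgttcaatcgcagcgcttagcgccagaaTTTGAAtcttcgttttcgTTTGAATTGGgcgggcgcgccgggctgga
KIF4A, chrX:70290004-70290103, plus strand: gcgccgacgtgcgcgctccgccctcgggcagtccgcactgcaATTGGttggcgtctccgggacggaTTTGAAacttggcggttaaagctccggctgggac
NCAPG, chr4:17810879-17810978, plus strand: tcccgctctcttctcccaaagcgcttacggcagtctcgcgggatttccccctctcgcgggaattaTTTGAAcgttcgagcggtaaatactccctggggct
KIF11, chr10:92593030-92593129, plus strand: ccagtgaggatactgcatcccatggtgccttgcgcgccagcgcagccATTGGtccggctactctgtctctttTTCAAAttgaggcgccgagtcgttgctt
ESPL1, chr12:53268199-53268298, plus strand: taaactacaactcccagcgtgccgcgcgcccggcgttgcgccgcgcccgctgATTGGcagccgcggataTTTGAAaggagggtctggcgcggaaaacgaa
CDC20, chr1:43358881-43358980, plus strand: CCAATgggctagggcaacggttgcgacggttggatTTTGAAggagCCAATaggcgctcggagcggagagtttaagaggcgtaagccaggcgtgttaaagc
KIF20A, chr5:138179012-138179111, plus strand: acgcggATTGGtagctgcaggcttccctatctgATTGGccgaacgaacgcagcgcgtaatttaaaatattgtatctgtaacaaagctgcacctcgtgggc
CCNA2, chr4:121823884-121823983, minus strand: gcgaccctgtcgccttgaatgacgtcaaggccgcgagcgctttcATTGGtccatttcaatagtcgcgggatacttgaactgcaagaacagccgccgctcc

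Sequences with the CHR letters came from genes with large and with modest palbociclib changes: the log2 change was -3.60 in MKI67, -2.98 in KIF4A and -2.73 in NCAPG, and -1.31 in KIF11 and -1.19 in ESPL1. KIF20A, with the lowest palbociclib value of all 53, has no such letters in its window, and neither has CCNA2 (-1.22). Across the 32 tested genes with the letters the median palbociclib change was -2.16 (-3.60 to -0.29), and across the 13 without them -1.89 (-3.74 to -0.23). Of the 9 genes that changed less than 2-fold with palbociclib, 6 had a window and 4 of these held the letters. The ranges of the 2 groups of genes overlapped almost fully. The groups differ in the searched letters only. Other spellings and other starts of a gene were not searched, so a gene without the letters, such as CCNA2, may still hold a CHR. All 100 bases before the start used lay in annotated exons for CDC25B and CENPE, without the letters, and for PLK1 and PRC1, with them. The part of the CHR in the changes was not tested.

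Among CDK1, its cyclins and phosphatases, all 6 genes fell after irradiation and all 6 with palbociclib, and 4 fell with ruxolitinib. CDK1 (983), the kinase that starts mitosis, stood at 2359.5, 2147 and 2272 normalized counts in the proliferating libraries, 341, 301 and 348 with DMSO, 33.2, 38.3 and 36.4 with palbociclib and 189.8, 216 and 208 with ruxolitinib. No group overlapped another, and CDK1 kept 10.9% of its DMSO level with palbociclib (log2 change -3.16, SE 0.09, adjusted p 1.48e-12) and 61.9% with ruxolitinib (-0.69, SE 0.09, adjusted p 0.000169). Its partner cyclin B1, CCNB1 (891), stood at 4325, 4346 and 4446 normalized counts in the proliferating libraries, 531, 592 and 577 with DMSO, 253, 309.8 and 258 with palbociclib and 417, 431 and 470.1 with ruxolitinib. CCNB1 kept 48.4% of its DMSO level with palbociclib (log2 change -1.05, SE 0.08, adjusted p 4.6e-08). CCNB2 and CCNA2, cyclins B2 and A2, lay between, at 34.2% and 43.0% of the DMSO level.

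The kinase and its cyclin were left at different shares. Within each library the ratio of CDK1 to CCNB1 per kilobase of transcript was 0.531 to 0.586 in proliferating cells, 0.546 to 0.691 with DMSO, 0.474 to 0.538 with ruxolitinib and 0.133 to 0.151 with palbociclib. The palbociclib libraries lay below all others. This pair and the other ratios below were chosen after the values were seen and are given without a test.

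The phosphatases that activate CDK1 moved apart. CDC25B (994) stood at 3362, 3666 and 3535 normalized counts in the proliferating libraries, 809, 822 and 828 with DMSO, 659.6, 707 and 724 with palbociclib and 778, 744 and 819 with ruxolitinib. It kept 85.049% of its DMSO level with palbociclib (log2 change -0.23, SE 0.06, adjusted p 0.00393), and with ruxolitinib the libraries overlapped those with DMSO (adjusted p 0.626). CDC25C (995) stood at 416, 448 and 459.9 normalized counts in the proliferating libraries, 42.6, 39.1 and 27.8 with DMSO, 6.64, 10.9 and 9.77 with palbociclib and 34.7, 37.8 and 39.7 with ruxolitinib. It fell to 25.0% of the DMSO level with palbociclib (log2 change -1.89, SE 0.20, adjusted p 1.93e-06), on 6 to 11 reads a library, while its ruxolitinib value had the interval -0.37 to 0.48 and an adjusted p of 0.942.

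The 3 other mitotic kinases covered nearly the whole range of palbociclib changes. PLK1 (5347), which matures centrosomes and promotes entry into mitosis, stood at 3434, 3490.1 and 3569 normalized counts in the proliferating libraries, 278, 273 and 298 with DMSO, 66.4, 75.5 and 58.6 with palbociclib and 211, 219 and 230.1 with ruxolitinib. It fell in each comparison, with log2 changes of -3.62, SE 0.09, adjusted p 2.45e-14 after irradiation, -2.07, SE 0.09, adjusted p 8.16e-11 with palbociclib and -0.36, SE 0.09, adjusted p 0.0263 with ruxolitinib. NEK2 (4751), a kinase of centrosome separation, stood at 1015, 933 and 990.3 normalized counts in the proliferating libraries, 102, 87.6 and 84.4 with DMSO, 3.32, 14.2 and 6.22 with palbociclib and 53.2, 49.5 and 52.3 with ruxolitinib. Palbociclib left 0.809% of its proliferating level, on 3 to 13 reads a library, and the 3 libraries differed more than 4-fold from the lowest to the highest. The ruxolitinib libraries of NEK2 lay below all DMSO libraries at 56.6% of the mean, yet this was not called (log2 change -0.80, SE 0.30, adjusted p 0.175).

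AURKA (6790), the kinase of spindle poles, behaved otherwise. It stood at 2295, 2455 and 2499 normalized counts in the proliferating libraries, 692, 732 and 646 with DMSO, 588, 637 and 631 with palbociclib and 677, 596 and 646 with ruxolitinib. It fell after irradiation to 28.6% of the proliferating level (log2 change -1.81, SE 0.07, adjusted p 2.12e-12), and the 3 irradiated groups then lay close together. The palbociclib libraries were all below the DMSO libraries, but the change of -0.16 was not called (adjusted p 0.0676). Its 95% interval, -0.30 to -0.01, excludes a 2-fold fall. At equal library totals this change was called, at -0.38. Between the inhibitors AURKA differed by -0.05, with an interval of -0.19 to 0.10, and at equal totals by -0.25, which was called.

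Of the chromosomal passenger complex, which corrects faulty kinetochore attachments, all 4 subunits fell after irradiation and with palbociclib, and BIRC5 fell with ruxolitinib. BIRC5 (332), or survivin, stood at 3243, 3493 and 3244 normalized counts in the proliferating libraries, 467, 434 and 502 with DMSO, 60.9, 89.8 and 70.2 with palbociclib and 334, 321 and 362 with ruxolitinib. Its palbociclib change was -2.67, SE 0.11, adjusted p 6.75e-11, and its ruxolitinib change -0.46, SE 0.11, adjusted p 0.025. AURKB (9212), the kinase of the complex, stood at 1513, 1676 and 1464 normalized counts in the proliferating libraries, 106, 119.6 and 120.3 with DMSO, 24.3, 29.6 and 25.8 with palbociclib and 84.1, 109 and 83.9 with ruxolitinib. It kept 7.43% of its proliferating level with DMSO and 1.71% with palbociclib, and with ruxolitinib its libraries overlapped the DMSO range. CDCA8 (55143), which encodes borealin, stood at 1839.7, 1715 and 1851 normalized counts in the proliferating libraries, 198, 181 and 200.04 with DMSO, 53.1, 39.4 and 42.6 with palbociclib and 154, 158 and 155 with ruxolitinib. It kept 23.3% of its DMSO level with palbociclib, and its ruxolitinib libraries lay below all DMSO libraries without a call (adjusted p 0.121).

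INCENP (3619), the scaffold that holds the complex together, fell less than its partners. It stood at 1824, 1695 and 1883 normalized counts in the proliferating libraries, 409.8, 418 and 415 with DMSO, 335, 264 and 261 with palbociclib and 417, 453 and 402 with ruxolitinib. Its palbociclib change was -0.54, SE 0.09, adjusted p 0.00016, and its ruxolitinib libraries spanned the DMSO range (0.03, interval -0.16 to 0.22). Per kilobase, AURKB stood at 2.57 to 3.27 times INCENP in the proliferating libraries, 0.855 to 0.959 with DMSO, 0.668 to 0.796 with ruxolitinib and 0.240 to 0.371 with palbociclib. For the 2 Aurora kinases the ratio of AURKB to AURKA was 0.958 to 1.12, 0.250 to 0.304, 0.203 to 0.299 and 0.0668 to 0.0759 in the same order of groups.

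The spindle checkpoint delays anaphase while kinetochores lack microtubules. All 5 of its genes fell after irradiation, 4 fell with palbociclib and BUB1 alone of the 5 was called with ruxolitinib. The ruxolitinib libraries lay below the DMSO libraries for all 5, as for 17.0% of all tested genes. BUB1 (699), a kinase of the kinetochore, stood at 2534, 2360.0 and 2679.6 normalized counts in the proliferating libraries, 304, 372 and 309 with DMSO, 74.1, 47.1 and 65.7 with palbociclib and 235, 222 and 227 with ruxolitinib. Its log2 change was -2.40, SE 0.13, adjusted p 1.31e-09 with palbociclib and -0.52, SE 0.13, adjusted p 0.034 with ruxolitinib. BUB1B (701), which encodes BUBR1, stood at 2623, 2336 and 2699 normalized counts in the proliferating libraries, 226, 255 and 295 with DMSO, 58.7, 37.2 and 29.3 with palbociclib and 188, 181 and 187 with ruxolitinib. TTK (7272), the kinase MPS1, stood at 1461, 1239.9 and 1556 normalized counts in the proliferating libraries, 143, 134 and 173 with DMSO, 38.7, 44.9 and 21.3 with palbociclib and 127.3, 114 and 124 with ruxolitinib. Both fell with palbociclib, by log2 changes of -2.65 and -2.12. MAD2L1 (4085), the MAD2 protein that holds CDC20 inactive, stood at 1562, 1579 and 1582 normalized counts in the proliferating libraries, 298, 253 and 260.2 with DMSO, 81.9, 114.9 and 79.9 with palbociclib and 196, 226 and 226 with ruxolitinib. Its palbociclib change was -1.56, SE 0.12, adjusted p 6.41e-08. In these 3 genes the ruxolitinib libraries lay below the DMSO libraries, with adjusted p of 0.181, 0.541 and 0.175.

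BUB3 (9184), the adaptor that brings BUB1 and BUBR1 to kinetochores, stood at 4000.0, 4027 and 4001 normalized counts in the proliferating libraries, 2216, 2336 and 2194 with DMSO, 2293, 2551 and 2308 with palbociclib and 1953, 2039 and 2012 with ruxolitinib. It had the smallest change after irradiation among the 53 genes (log2 change -0.83, SE 0.05, adjusted p 7.53e-10) and kept 56.1% of its proliferating level. Palbociclib and DMSO libraries overlapped, and the difference was not called (0.08, SE 0.05, adjusted p 0.196, interval -0.03 to 0.19). At equal totals its sign turned, to -0.14 with an adjusted p of 0.0278. BUB3 was higher with palbociclib than with ruxolitinib (0.25, SE 0.05, adjusted p 0.00121), a call that was lost at equal totals. Per kilobase, BUB1 stood at 1.20 to 1.37 times BUB3 in proliferating libraries, 0.281 to 0.326 with DMSO, 0.223 to 0.246 with ruxolitinib and 0.0378 to 0.0662 with palbociclib.

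Of 6 centromere and kinetochore genes, 5 were tested, all 5 fell after irradiation and with palbociclib by at least 2-fold, and 4 fell with ruxolitinib. CENPF (1063), a large kinetochore protein, stood at 9065, 7572 and 10130.0 normalized counts in the proliferating libraries, 841, 829.9 and 848 with DMSO, 183, 149.97 and 129.7 with palbociclib and 613, 565 and 649 with ruxolitinib. It kept 9.41% of its proliferating level with DMSO and 1.73% with palbociclib. CENPE (1062), the kinesin that carries chromosomes to the spindle equator, stood at 3267, 2844 and 3601 normalized counts in the proliferating libraries, 506, 527 and 483 with DMSO, 166, 157 and 169 with palbociclib and 341, 399.8 and 431 with ruxolitinib. With a log2 change of -1.62, SE 0.09, adjusted p 2.58e-09, it had the smallest palbociclib fall of the 5.

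NDC80 (10403), the microtubule-binding subunit of the kinetochore, stood at 1424, 1281 and 1402 normalized counts in the proliferating libraries, 188, 211 and 184 with DMSO, 18.8, 20.8 and 21.3 with palbociclib and 117, 148 and 121 with ruxolitinib. Its palbociclib change of -3.19, SE 0.11, adjusted p 9.26e-12 was among the 5 largest of the 53 genes, and its ruxolitinib change was -0.60, SE 0.11, adjusted p 0.0043. NUF2 (83540), its partner in the complex, stood at 1229.6, 1234 and 1248 normalized counts in the proliferating libraries, 103, 122 and 94.8 with DMSO, 16.6, 15.3 and 17.8 with palbociclib and 88.0, 81.9 and 76.7 with ruxolitinib. It changed by -2.61 with palbociclib and was not called with ruxolitinib (-0.36, adjusted p 0.108), although the groups did not overlap. CENPA (1058), the histone H3 variant that marks centromeres, stood at 654, 654 and 581 normalized counts in the proliferating libraries, 48.5, 61.6 and 46.3 with DMSO, 8.85, 7.66 and 7.11 with palbociclib and 25.5, 26.1 and 37.0 with ruxolitinib. Its ruxolitinib change, -0.81, SE 0.18, adjusted p 0.0167, was the largest of all 53 and left 56.7% of the DMSO level. The palbociclib libraries held 7 to 8 reads of CENPA.

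The 9 tested kinesins, motors that move along microtubules, all fell after irradiation and with palbociclib, 8 of them at least 2-fold with palbociclib, and 4 fell with ruxolitinib. After irradiation their log2 changes lay between -3.41 and -2.63, and with palbociclib they spread from -3.74 to -0.55. KIF20A (10112), a kinesin of the central spindle, stood at 3633, 3332 and 3722 normalized counts in the proliferating libraries, 374, 354 and 392 with DMSO, 31.0, 28.5 and 22.2 with palbociclib and 262, 213 and 265 with ruxolitinib. It kept 7.29% of its DMSO level with palbociclib, the lowest share of the 53 genes (log2 change -3.74, SE 0.12, adjusted p 2.21e-12), and 66.1% with ruxolitinib (-0.60, SE 0.12, adjusted p 0.0059). KIF23 (9493), another central spindle kinesin, stood at 4512, 3976 and 4546 normalized counts in the proliferating libraries, 640.4, 605 and 631 with DMSO, 352, 299.9 and 275 with palbociclib and 489, 511 and 483 with ruxolitinib. It kept 49.4% with palbociclib. The ratio of KIF20A to KIF23 per kilobase was 0.952 to 0.991 in proliferating libraries, 0.691 to 0.734 with DMSO, 0.492 to 0.650 with ruxolitinib and 0.0954 to 0.112 with palbociclib.

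KIF2C (11004), which takes microtubules apart at centromeres, stood at 2517, 2504 and 2579 normalized counts in the proliferating libraries, 272, 266 and 258 with DMSO, 29.9, 28.5 and 27.5 with palbociclib and 191, 172 and 189 with ruxolitinib. Its libraries agreed closely within groups, and its log2 changes were -3.17, SE 0.08, adjusted p 4.74e-13 with palbociclib and -0.53, SE 0.08, adjusted p 0.000673 with ruxolitinib. KIF11 (3832), the motor that pushes spindle poles apart, stood at 3956, 3511 and 4223 normalized counts in the proliferating libraries, 380.1, 365 and 353 with DMSO, 139, 148 and 155 with palbociclib and 321, 291 and 293 with ruxolitinib. It fell with palbociclib (-1.31, SE 0.08, adjusted p 3.58e-09), and with ruxolitinib it missed the threshold (-0.28, SE 0.08, adjusted p 0.0582) although the groups did not overlap. KIF20B, a kinesin of late mitosis, kept 47.7% of its DMSO level with palbociclib and fell with ruxolitinib (adjusted p 0.0392).

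KIF4A (24137), a chromosome-bound kinesin, stood at 2227, 2052 and 2207 normalized counts in the proliferating libraries, 284, 299.5 and 253 with DMSO, 28.8, 47.1 and 30.2 with palbociclib and 207, 227 and 207 with ruxolitinib. KIF14 (9928), a kinesin of cytokinesis, stood at 1518, 1262 and 1589 normalized counts in the proliferating libraries, 144, 137 and 185 with DMSO, 44.3, 32.8 and 37.3 with palbociclib and 124, 131 and 104 with ruxolitinib. KIF15 (56992), which helps to keep spindles bipolar, stood at 919, 848 and 1053 normalized counts in the proliferating libraries, 95.024, 65.1 and 120.3 with DMSO, 13.3, 17.5 and 22.2 with palbociclib and 67.1, 83.7 and 74.9 with ruxolitinib. These 3 fell with palbociclib, by -2.98, -1.995 and -2.32 on the log2 scale. With ruxolitinib none of the 3 was called, at adjusted p of 0.173, 0.199 and 0.592, and the libraries of KIF15 overlapped those with DMSO. KIF18A (81930), a motor that dampens chromosome movements, stood at 1034, 945 and 1165 normalized counts in the proliferating libraries, 179, 152 and 175 with DMSO, 129, 111 and 105 with palbociclib and 160.5, 146 and 141 with ruxolitinib. It kept 68.2% of its DMSO level with palbociclib (-0.55, SE 0.11, adjusted p 0.000722), the smallest fall among the kinesins, and its ruxolitinib libraries overlapped the DMSO libraries.

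All 5 spindle microtubule proteins fell after irradiation and with palbociclib, and TPX2, NUSAP1 and CKAP2 fell with ruxolitinib. TPX2 (22974), which activates Aurora A and nucleates microtubules, stood at 7239, 7123 and 7512 normalized counts in the proliferating libraries, 981, 938 and 961 with DMSO, 366, 416 and 418 with palbociclib and 735, 789.7 and 741 with ruxolitinib. Its changes were -1.26, SE 0.06, adjusted p 2.72e-10 with palbociclib and -0.35, SE 0.06, adjusted p 0.00263 with ruxolitinib. CKAP2 (26586), a microtubule-associated protein, stood at 4291, 3777 and 4178 normalized counts in the proliferating libraries, 967, 1051 and 1019 with DMSO, 572, 568 and 529 with palbociclib and 863, 868 and 858 with ruxolitinib. It kept 24.8% of its proliferating level with DMSO, 21.1% with ruxolitinib and 13.6% with palbociclib, and its groups did not overlap. HMMR (3161), a spindle assembly factor, stood at 1386, 1217 and 1349 normalized counts in the proliferating libraries, 251, 220.2 and 206 with DMSO, 33.2, 38.3 and 24.9 with palbociclib and 163, 169 and 155 with ruxolitinib. DLGAP5 (9787), which stabilises kinetochore microtubules, stood at 3034, 2762 and 2977 normalized counts in the proliferating libraries, 301, 307 and 284 with DMSO, 35.4, 51.4 and 32.9 with palbociclib and 194, 225 and 231 with ruxolitinib. Both lay lowest with palbociclib (-2.79 and -2.89), as did NUSAP1 (-2.72). With ruxolitinib HMMR and DLGAP5 just missed the threshold, at adjusted p of 0.0584 and 0.0612, and lay below all DMSO libraries.

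All 4 genes of anaphase and chromatid separation fell at least 2-fold both after irradiation and with palbociclib. CDC20 (991), the activator of the anaphase-promoting complex, stood at 3192, 3449 and 3201 normalized counts in the proliferating libraries, 296, 271 and 276 with DMSO, 56.4, 84.3 and 58.6 with palbociclib and 177, 204 and 204 with ruxolitinib. It fell with palbociclib (-2.09, SE 0.12, adjusted p 2.87e-09) and with ruxolitinib (-0.53, SE 0.12, adjusted p 0.0207), as did UBE2C, the ubiquitin-conjugating enzyme of that complex, with -2.25 and -0.43. PTTG1 (9232), or securin, which holds separase inactive, stood at 2210.1, 2429 and 2231 normalized counts in the proliferating libraries, 345, 353 and 301 with DMSO, 112, 182 and 127.02 with palbociclib and 323, 295 and 346 with ruxolitinib. It fell with palbociclib (-1.27, SE 0.13, adjusted p 1.99e-06), while its ruxolitinib libraries overlapped the DMSO libraries (-0.05, interval -0.34 to 0.24). ESPL1 (9700), separase itself, stood at 1154, 1034 and 1076 normalized counts in the proliferating libraries, 196, 186 and 187 with DMSO, 68.6, 93.0 and 87.9 with palbociclib and 156, 141 and 143 with ruxolitinib. It changed by -1.19 with palbociclib and by -0.37 with ruxolitinib, which was not called (adjusted p 0.066).

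Of the cytokinesis genes, which divide the cell body, all 4 fell after irradiation and with palbociclib, 2 of them at least 2-fold with palbociclib, and 3 fell with ruxolitinib. ANLN (54443), or anillin, a scaffold of the contractile ring, stood at 15303, 12131 and 16049 normalized counts in the proliferating libraries, 1664, 1659.7 and 1773 with DMSO, 491, 391 and 451 with palbociclib and 1237, 1220.1 and 1261 with ruxolitinib. PRC1 (9055), which bundles microtubules of the central spindle, stood at 5929, 5330.0 and 6165 normalized counts in the proliferating libraries, 738, 698 and 772 with DMSO, 156, 179.5 and 136 with palbociclib and 557, 501 and 504 with ruxolitinib. Their palbociclib changes were -1.94, SE 0.09, adjusted p 2.85e-10 in ANLN and -2.23, SE 0.09, adjusted p 6.11e-11 in PRC1. The groups of both genes did not overlap.

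ECT2 (1894), the exchange factor that activates RhoA at the division plane, stood at 3864, 3221 and 4176 normalized counts in the proliferating libraries, 1005, 1091 and 1087 with DMSO, 965, 823 and 824 with palbociclib and 918, 930.1 and 966 with ruxolitinib. It kept 28.3% of its proliferating level with DMSO. Palbociclib lowered it slightly (-0.29, SE 0.09, adjusted p 0.0119), the ruxolitinib change was not called (-0.18, adjusted p 0.337), and the difference between the inhibitors was not called (-0.11, interval -0.29 to 0.07). At equal totals ECT2 was called lower with palbociclib than with ruxolitinib (-0.31, adjusted p 0.00466). RACGAP1, which works with ECT2 and KIF23, kept 51.8% of its DMSO level with palbociclib.

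Among condensin and chromosome structure genes, all 6 fell after irradiation and with palbociclib, and 5 fell with ruxolitinib. MKI67 (4288), the Ki-67 protein that coats mitotic chromosomes and is used as a marker of dividing cells, stood at 13458, 10615 and 15114 normalized counts in the proliferating libraries, 977, 1017 and 1038 with DMSO, 88.5, 71.2 and 87.9 with palbociclib and 726, 678 and 697 with ruxolitinib. Palbociclib left 0.632% of its proliferating level, the lowest share of the 53 genes. TOP2A (7153), the enzyme that untangles DNA before chromatids separate, stood at 13245, 11952 and 13591 normalized counts in the proliferating libraries, 1294, 1306 and 1389 with DMSO, 250.1, 273 and 232 with palbociclib and 1092, 1054 and 991 with ruxolitinib. It was lower in all 4 comparisons, with -2.40, SE 0.07, adjusted p 1.48e-12 for palbociclib and -0.35, SE 0.07, adjusted p 0.00727 for ruxolitinib.

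Condensin folds chromosomes and consists of the ATPases SMC2 and SMC4 with subunits such as NCAPG and NCAPH. NCAPH (23397) stood at 1376, 1349.7 and 1332 normalized counts in the proliferating libraries, 122, 134 and 126.04 with DMSO, 27.7, 28.5 and 18.7 with palbociclib and 76.4, 77.4 and 80.3 with ruxolitinib. NCAPG (64151) stood at 2708, 2386 and 2722 normalized counts in the proliferating libraries, 373, 375 and 422 with DMSO, 46.5, 74.4 and 56.0 with palbociclib and 232, 268 and 245 with ruxolitinib. These 2 subunits were among the 5 largest ruxolitinib falls, at -0.70, SE 0.13, adjusted p 0.00596 and -0.65, SE 0.13, adjusted p 0.00777. SMC2 (10592) stood at 2921, 2439 and 2957 normalized counts in the proliferating libraries, 623, 629.8 and 722 with DMSO, 526, 442 and 479 with palbociclib and 586, 642 and 589 with ruxolitinib. It kept 73.3% of its DMSO level with palbociclib (-0.45, SE 0.09, adjusted p 0.000635) and was not called with ruxolitinib, whereas SMC4 kept 46.6%. The ratio of NCAPH to SMC2 per kilobase was 0.443 to 0.544 in proliferating libraries, 0.172 to 0.209 with DMSO, 0.119 to 0.134 with ruxolitinib and 0.0383 to 0.0633 with palbociclib.

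Across roles the genes with the smallest palbociclib changes were thus spread out: BUB3, AURKA, CDC25B, ECT2, SMC2, INCENP, KIF18A, CKAP2 and RACGAP1 changed by less than 2-fold and belong to 8 of the 11 roles. Their share of the proliferating level with DMSO was already above the median gene's 11.7%, from 16.1% in KIF18A to 56.1% in BUB3. The order of abundance shifted with them. In normalized counts per kilobase of transcript, PTTG1 (3203), ANLN (3064) and UBE2C (2673) were the most abundant of the 53 in proliferating cells, and BUB3 (309), AURKA (304) and CDC25B (223) with palbociclib. BUB3 ranked 37 in proliferating cells and 1 with palbociclib, and MKI67 ranked 24 and 47.

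Patterns of calls were few. In 29 genes, PLK1, CDK1 and MKI67 among them, the value was lower in all 4 comparisons. Another 21, among them MYBL2, AURKB and NEK2, were lower in all but ruxolitinib against DMSO. ECT2, AURKA and BUB3 had patterns of their own. Joint patterns were not counted over all tested genes. Of all tested genes, 3.42% were called lower with ruxolitinib than with DMSO, an upper limit for the share with the first pattern. For the second pattern the limit is the 17.6% called lower with palbociclib than with ruxolitinib. A gene called in 1 comparison and not in another is not thereby shown to differ between them, and the direct comparison of the inhibitors gives that test: 37 genes were at least 2-fold lower with palbociclib than with ruxolitinib.

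Other genes of the same machinery were measured beside these. From 7 further lists, 111 genes were tested, of which 98 were lower and 6 higher with DMSO than in proliferating cells, with a median log2 change of -1.45, beside -0.05 over all tested genes. Of all tested genes 39.3% were called lower and 33.0% higher in that comparison. With palbociclib 60 were lower and 9 higher (median -0.25, beside 0.02), where 22.3% of all genes were lower and 26.0% higher. With ruxolitinib 9 were lower (median -0.08, beside -0.0028), where 3.42% of all genes were. The counts of each list below are read against these shares. Of 30 other kinetochore and centromere genes, 28 fell after irradiation and 19 with palbociclib, among them SPAG5, a spindle and kinetochore protein, from 445 to 109 normalized counts. SPDL1, or spindly, stood at 668 with DMSO and 658 with palbociclib. CENPT, a linker between centromere and kinetochore, was higher after irradiation (0.31, adjusted p 0.000125) and higher again with palbociclib (0.40, adjusted p 3.66e-05), and MAD1L1 and PMF1 were also higher with palbociclib.

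The anaphase-promoting complex marks securin and cyclin B for destruction. Of its 16 tested subunits and partners, 12 fell and ANAPC13 rose after irradiation (median -0.47). With palbociclib 2 fell, the inhibitor FBXO5 and the ubiquitin-conjugating enzyme UBE2S, and ANAPC5, ANAPC11 and CDC16 rose, both counts below the shares of all genes (22.3% lower and 26.0% higher). CDC27, a core subunit, stood at 3620 normalized counts in proliferating cells, 2875 with DMSO and 2809 with palbociclib, and ANAPC5 at 2699, 2245 and 2906. None of the 16 was called with ruxolitinib by limma.

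Cohesin, which holds sister chromatids together, had 9 of 12 tested genes lower after irradiation and 8 with palbociclib, beside 39.3% and 22.3% of all genes, as for the next 2 lists. RAD21 fell from 7168 to 2414 normalized counts and then to 1909 with palbociclib, and SMC1A stood at 5177, 1955 and 1723. ESCO1 and MAU2 were higher after irradiation and lower with palbociclib. All 4 other condensin subunits fell after irradiation and 3 with palbociclib, among them NCAPD2, from 5013 to 944 and then 542, and NCAPG2, from 3310 to 510.2 and then 247. Of 28 spindle pole and midbody genes, 27 fell after irradiation and 20 with palbociclib; CKAP5 fell from 6585 to 3542 and 2752, NUMA1 from 3017 to 2724 and 2060, and KIFC2 was higher after irradiation (1.21).

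Of 10 genes of the mitotic entry switch, the kinases and phosphatase regulators that set CDK1 activity, 9 fell after irradiation and 5 with palbociclib, and PKMYT1 and MASTL fell with ruxolitinib, where 39.3%, 22.3% and 3.42% of all genes were lower. ARPP19, which inhibits the opposing phosphatase, stood at 3708, 3023 and 3400 normalized counts in proliferating, DMSO and palbociclib cells, a rise with palbociclib (0.17, adjusted p 0.0174), and its relative ENSA at 1797, 1582 and 1673. PPP2R2A, a subunit of that phosphatase, was higher after irradiation (0.20, adjusted p 0.00772). Of 11 DREAM and MuvB genes, which control the mitosis genes, 9 fell after irradiation (median -0.56). With palbociclib LIN52, RBL1 and DYRK1A fell and TFDP1 and TFDP2 rose (median 0.05), counts near the shares of all genes (22.3% lower and 26.0% higher). TFDP1 stood at 3664, 2089 and 2442 and RBBP4 at 2345, 1198 and 1104.

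In the proliferating library A126, 41 of the 53 genes lay below the mean of the other 2 proliferating libraries, and the deviation followed transcript length (Pearson r = -0.71, Spearman rho = -0.63, across 53 genes of the same libraries, as a description). In the proliferating libraries A127 and A125, 10 and 20 of the 53 genes lay below the other libraries of the group, and the Pearson r was 0.67 and 0.44. Each deviation is taken from the other libraries of the group, so the 3 are not independent. Over 11167 tested genes with a length the Pearson r was -0.37 in A126. The palbociclib libraries A120 and A119 had -0.42 and 0.39 over all these genes, and -0.30 and 0.29 over the 53, while in the other libraries it lay between -0.09 and 0.27. MKI67 stood in A126 at 74.3% of the other two, ANLN at 77.4% and CENPF at 78.9%, while the short transcripts of UBE2C, AURKB and PTTG1 stood at 113%, 112.6% and 109%. The part of length in these deviations was not tested. Without A126 the log2 change of MKI67 after irradiation was -3.82 in place of -3.68. Across the 53 genes the change itself had a Pearson r with log length of 0.23 after irradiation, 0.12 with palbociclib and 0.03 with ruxolitinib.

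**Figure D4:**
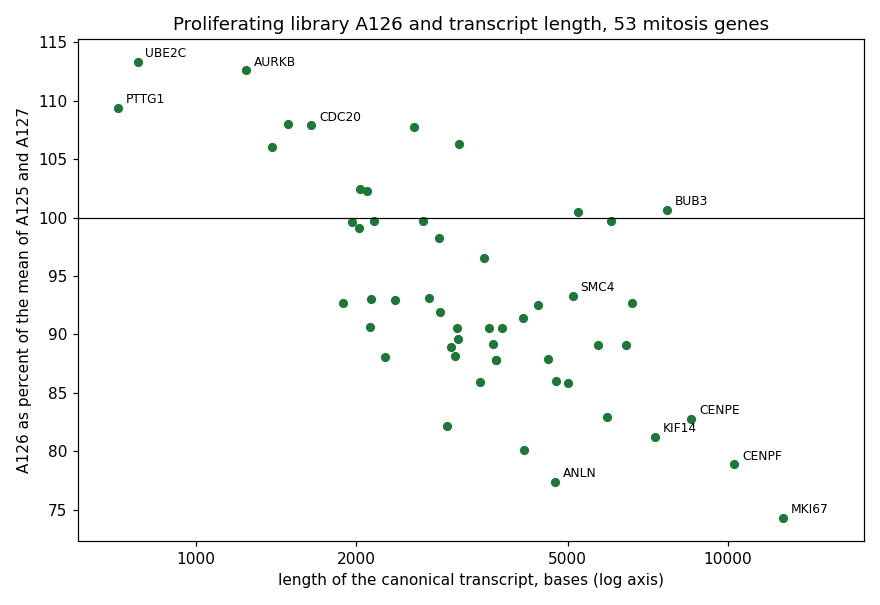
Value of each of the 53 mitosis genes in proliferating library A126, as percent of the mean of A125 and A127, against the length of its canonical transcript in bases on a log axis; 1 point is 1 gene and the line marks equality. The longest transcript, MKI67, lies lowest at 74.3%, and the short UBE2C lies highest at 113%.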

How the data were processed

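Poly(A) RNA of 12 libraries, 3 per group, was analysed from a single table of 16383 genes. The authors deposited normalized counts, a signal that is never negative, and dividing each column by its smallest step gave whole reads for 160380 of 160380 values above 0 (tolerance 0.01). Trimmomatic 0.38.1, HISAT2 2.2.1, featureCounts 2.0.3, FastQC 0.74, MultiQC, DESeq2 2.11.40.8 and the build hg38 (GRCh38) are named, without roles, per the submitters' processing notes. The annotation, and whether counting used strand, are not given in the sources used here. The table ended at Entrez gene 140467. Genes with higher numbers (23.9% of protein-coding genes) were not analysed here.

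Column names gave a group and a library number but no replicate number, so columns were assigned to groups only. With limma 3.58.1 (R 4.3.3), log2 of the normalized count plus 1 was modelled over all 12 libraries with a variance trend, for 11242 genes with a mean of at least 10, with Benjamini-Hochberg adjustment over all of them and an adjusted p under 0.05 as the threshold of a call. Adjusted p-values come from limma except where edgeR or DESeq2 is named. Log2 changes carry the added 1, which makes those of low genes too small, and all changes are relative to the authors' scaling. The fit was tested on simulated data. edgeR 4.0.16 and DESeq2 1.42.0 were run on recovered reads as alternatives, beside other pseudocounts, filters, scalings and fits. Levels per kilobase used the canonical transcript of GENCODE. The genes and lists were chosen with earlier results of these data known.

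Genes named with values for each library are the 2 most abundant of each role, the 5 largest and 5 smallest changes of each comparison, and every gene not called or called against the majority; the rest are given by counts, changes and ranges. From the further lists, the 2 most abundant genes and those called against the list's direction are named.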

Additional observations from a re-analysis of the deposited data

How the results depend on the processing

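No paired analysis was possible because the columns carry no replicate number. The fit with a replicate block was not run for that reason. The counts of mitosis genes called lower were 53 to 53 after irradiation, 50 to 52 for palbociclib against DMSO and 48 to 50 between the inhibitors on leaving out single libraries, and 11 (without A122) to 37 (without A119) for ruxolitinib against DMSO, where the count without each of A116, A117, A118, A123 and A124 was 13 to 16. That count was 13 at an adjusted p under 0.01, 0 at a log2 change of at least 1 in size, 35 with edgeR, 37 with DESeq2, 33 at equal library totals and 42 when only the 2 groups were fitted. Palbociclib libraries such as A119 enter the comparison of ruxolitinib with DMSO only through the spread that the fit shares over all groups. The cause of the moves was not tested. Between the inhibitors the count called higher, 1 (BUB3), was 0 at equal totals and 0 at a log2 change of at least 1 in size. Single genes changed sign in 4 cases of 5088 gene-level values under alternatives: BUB3 for palbociclib against DMSO at equal totals (-0.14), and for ruxolitinib against DMSO CDC25C without A118, INCENP without A123 and PTTG1 without A123. On leaving out single libraries these 3 ranged from -0.12 to 0.18, from -0.018 to 0.068 and from -0.12 to 0.0093. Of the others, 4837 kept direction and side of the threshold, 59 gained a call and 188 lost one. Depth limits CENPA, CDC25C and NEK2 with palbociclib, at 3 to 13 reads a library.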

Other observations

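Outside the lists, the 10 genes whose level followed the mean standardised profile of the mitosis genes most closely over the 12 libraries were SHCBP1, CDC6, HELLS, EZH2, ORC1, HMGB2, LMNB1, MCM10, POLD3 and PRDM8, with Pearson r from 0.999 in SHCBP1 to 0.996 in PRDM8, over 12 libraries that share 4 groups. SHCBP1, a midbody protein, had group means of 2984 normalized counts in proliferating cells, 435 with DMSO, 332 with ruxolitinib and 140.2 with palbociclib. CDC6, which licenses replication origins, had 1439.5, 295, 239 and 117 in the same order. LMNB1, the lamin B1 gene, had 3911, 153, 129 and 31.5. Among the mitosis genes themselves r ran from 0.844 in BUB3 and 0.944 in AURKA upwards.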
